A study of Mus musculus with 21 samples.

Results

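The 10 genes described here code for proteins that link the exon junction complex to the mRNA export machinery: the exon junction core genes Magoh, Magohb and Rbm8a, the TREX genes Ddx39b, Thoc3, Alyref, Alyref2 and Sarnp, and the export receptor genes Nxf1 and Nxt1. They were chosen by name and not by any measured value, although earlier results of these data were known at the time. They are 10 of the 10917 annotated genes that had at least 1 transcript in the merged annotation, and 16 of its 22612 transcripts were assigned to them. The study sequenced full-length cDNA of mouse gametes and preimplantation embryos with short reads, in 2 libraries for each of 7 stages, and with long reads, in 1 pool for each stage. Sperm came from DBA/2J males according to the sample labels, although a protocol label names DBA/2N. Oocytes came from superovulated C57/BL6J females aged 3 to 5 weeks, 20 h after the injection of hCG. Embryos came from a cross of DBA/2J males with superovulated C57/BL6J females, also aged 3 to 5 weeks. They were taken at the 1-cell stage (24 to 26 h after hCG), the 2-cell stage (46 to 48 h) and the 4-cell stage (54 to 58 h). Later embryos were taken at the 8-cell stage (68 to 70 h) and the blastocyst stage (94 to 96 h). All embryos had been cultured in KSOM medium, and the labels name no engineered allele or treatment. Each library was made from a pool of oocytes or embryos, so a value is the mean of a pool. By the study's description 2 batches were collected at each stage, each giving cDNA for short reads, and both were mixed for the long-read pool. The labels do not tie a library to its animals.

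An mRNA leaves the nucleus only after it has been processed and packed with proteins. Splicing deposits the exon junction complex just upstream of each joined pair of exons. Its core holds the helicase Eif4a3, the heterodimer of Magoh with Rbm8a (also called Y14) and, in the cytoplasm, Casc3. The TREX complex, built from the THO subunits, the helicase Ddx39b (UAP56) and adaptors such as Alyref, is loaded on the mRNA with help from the cap and from splicing, and hands it to the receptor, a heterodimer of Nxf1 with Nxt1 that passes the nuclear pore. The junction complex stays on the mRNA until the first round of translation and also feeds nonsense-mediated decay. In the mouse, an oocyte is almost silent in transcription and lives on stored mRNA, minor transcription begins in the 1-cell embryo, and the major activation of the embryonic genome falls in the 2-cell stage, when much of the stored mRNA is cleared.

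Of the 10 genes, 4 form 2 pairs of close copies, and sequences of the annotated transcripts show how well short reads can tell them apart. The coding sequences of Magoh and Magohb (GENCODE vM21 on GRCm38, stop codon left out) were 438 and 444 bases long and identical at 81.3% of the 438 aligned bases, with no identical run over 17 bases. The last 150 coding bases of both are shown as an example of how the copies differ, with the 27 differing bases in capitals.
Magoh: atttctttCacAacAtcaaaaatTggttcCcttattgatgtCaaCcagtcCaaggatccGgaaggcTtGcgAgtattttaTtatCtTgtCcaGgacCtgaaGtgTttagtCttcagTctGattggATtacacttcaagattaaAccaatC
Magohb: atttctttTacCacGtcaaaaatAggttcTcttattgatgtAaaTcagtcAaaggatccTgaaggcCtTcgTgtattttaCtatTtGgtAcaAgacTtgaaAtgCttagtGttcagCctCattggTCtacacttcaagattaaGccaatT
No 31-base word of the Magoh or the Magohb transcript occurred in a transcript of any other gene, so their values rest on separate sequence. The coding sequences of Alyref and Alyref2 were closer, identical at 92.3% of 651 aligned bases with a longest identical run of 57 bases, and 2.34% of the 31-base words of Alyref and 5.71% of those of Alyref2 were shared with transcripts of other genes that the merged annotation also held, above all with each other. For Rbm8a, 15.9% of the words were shared with such genes, mainly Rbm8a2, a copy whose coding sequence was identical at 97.9% of 519 aligned bases. For Sarnp the share was 64.4%, mainly with Gm6563. Reads from these words cannot be given to 1 gene with certainty. These shares were counted over annotated transcripts, of 2608 bases for Rbm8a and 3527 bases for Alyref. The merged Rbm8a transcript with the same introns has 724 bases and the merged Alyref transcript 854. The share of words within these shorter transcripts was not counted and can differ from the shares given. In the quantification Gm6563 stayed between 0 and 3.27 TPM in all 14 libraries, and Rbm8a2 between 0.134 and 6.04 TPM in 13 of them, with 41.8 TPM in 2-cell replicate 2. For Nxf1, Nxt1, Ddx39b, Thoc3, Magoh and Magohb the share with other genes of the merged annotation was 0%. Counted over all annotated genes, the share was 14% for Nxt1, mainly with AC170187.2, and 3.63% for Ddx39b, mainly with Mir8094. It was 0.911% for Thoc3, mainly with Gm5253. Reads from genes without a merged transcript could be counted with these members, and this was not tested.

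Promoter windows of 300 bases (RefSeq, GRCm38.p6, from 250 bases before the annotated start to 50 after it) were held for 8 of the 10 genes, all but Rbm8a and Thoc3. The windows of Alyref2 and Magohb are shown because these genes changed in opposite directions between the 1-cell and the 2-cell stage and because the merged transcripts of both began within 1 base of the annotated start. Capitals mark matches on either strand to a listed motif. The GC box was searched as GGGCGG and the CCAAT box by its name. The ETS motif was searched as CCGGAAG and the cAMP response element as TGACGTCA. A TATA box was searched as TATAAA, a homeobox motif as TAATCC, and the palindromic NRF1 motif was searched too. Both windows are written in the direction of transcription, Alyref2 at chr1:171503228-171503527 on the plus strand and Magohb at chr6:131293195-131293494 on the minus strand.
Alyref2: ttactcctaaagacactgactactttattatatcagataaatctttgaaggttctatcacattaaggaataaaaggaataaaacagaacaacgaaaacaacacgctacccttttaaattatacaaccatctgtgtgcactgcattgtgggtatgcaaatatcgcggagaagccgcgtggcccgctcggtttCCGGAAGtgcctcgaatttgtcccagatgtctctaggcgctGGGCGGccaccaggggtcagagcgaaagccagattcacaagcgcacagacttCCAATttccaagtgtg
Magohb: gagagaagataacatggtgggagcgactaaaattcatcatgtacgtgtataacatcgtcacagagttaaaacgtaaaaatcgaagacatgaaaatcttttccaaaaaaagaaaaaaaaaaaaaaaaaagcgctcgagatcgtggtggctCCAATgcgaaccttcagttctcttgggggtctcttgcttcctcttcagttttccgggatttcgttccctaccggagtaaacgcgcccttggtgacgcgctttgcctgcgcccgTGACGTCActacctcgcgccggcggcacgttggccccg
The Alyref2 window held 1 GC box, 1 ETS match and 1 CCAAT box, and the Magohb window held 1 CCAAT box and 1 cAMP response element. Over all 32817 distinct windows of this length, 35.6% held a GC box, 37.4% a CCAAT box, 8.86% the ETS motif, 13.6% a TATA box, 7.06% the homeobox motif, 0.966% the NRF1 motif and 1.79% the cAMP response element. The ETS motif was found in the windows of 3 of the 8 genes, Alyref, Alyref2 and Ddx39b. None of the 8 held the NRF1 or the homeobox motif. The Alyref window (chr11:120598316-120598615) was the only one of the 8 with a TATA box, but the merged Alyref transcript began 487 bases downstream of the nearest annotated start, so its own start was not seen. These matches are descriptions of the letters in the windows and not evidence of binding.

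Several libraries stood apart. Between the 2 libraries of a stage, the median SD of log2(TPM + 1) over the genes tested was 0.19 at the 4-cell and 0.27 at the 8-cell stage but 1.04 at the 2-cell and 0.67 at the blastocyst stage, and the 2-cell libraries correlated with each other at only r = 0.68 across genes. Marker lists were checked against the stage labels. Sperm markers summed to 14002 and 20767 TPM in sperm and to at most 17.0 TPM elsewhere, blastocyst markers to 10141 and 37296 TPM in blastocysts, and the 5 markers of the 2-cell stage to 386 TPM in 2-cell replicate 2. In 2-cell replicate 1 they summed to 22.6 TPM, close to the 18.4 and 22.1 TPM of 4-cell embryos, so that library does not stand out by them. Oocyte markers were still at 1175 TPM in 2-cell replicate 2 against 96.2 TPM in replicate 1. The sperm libraries also held markers of other cells, with a blood list at 73111 and 19092 TPM, mostly Cd74 at 71096 and 14459 TPM. Of 4 listed epididymis markers 2 had a merged transcript, Crisp1 at 2006 and 335 TPM and Adam7 at 31.4 and 11.6 TPM. In oocytes and embryos the same blood list summed to 2.59 to 468 TPM, the highest in 2-cell replicate 2. In that library Hba-a1 stood at 368 TPM and Cd74 at 99.9 TPM, but Hbb-bt at 0.191 TPM and Ptprc at 0.0278 TPM. No merged transcript matched the 5 listed markers of cumulus cells, which gives no reading on them. What part these differences play in the values below was not tested.

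The members are described in TPM, a share of all transcripts in a library corrected for transcript length, so levels can be compared between genes, but a higher TPM can come from more of that mRNA or from less of the rest, and these cannot be told apart here. Summed over the 10 genes, the level was 178 and 328 TPM in sperm, 609.9 and 927 in oocytes, 764 and 556 in 1-cell embryos, 1154 and 1239 in 2-cell embryos, 2168 and 2142 in 4-cell embryos, 1779.6 and 1661 in 8-cell embryos, and 1529 and 760.0 in blastocysts. The 4-cell libraries thus had the highest sums, to which Rbm8a gave 781 and 995 TPM and Magoh 403 and 369 TPM. Of the 10 genes, 5 had their highest mean there among oocytes and embryos. The share of all genes with their highest mean there was not counted, so this count is not a result about the members. The plot of levels by library shows all 140 values.

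**Figure D1:**
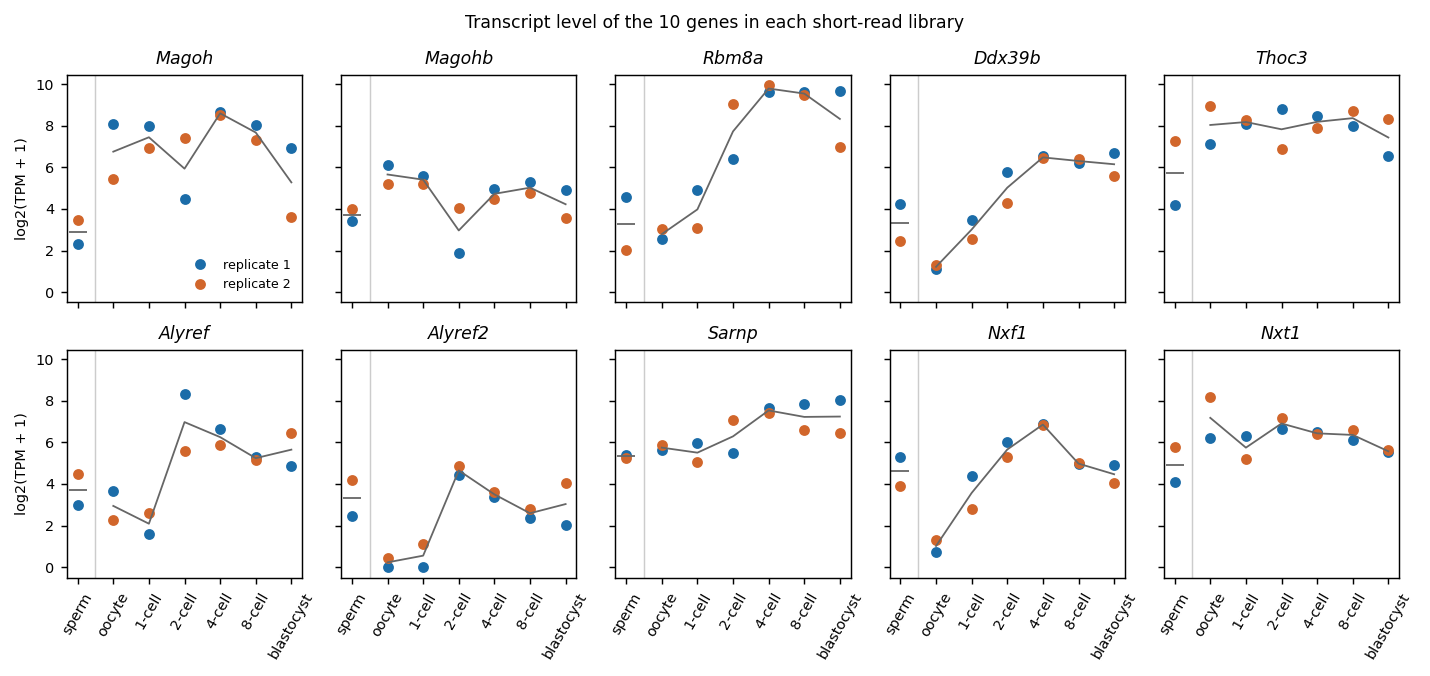
Level of each gene as log2(TPM + 1) on the vertical axis against stage, with 1 point for each of the 14 short-read libraries, coloured by replicate, and a grey line through the stage means from oocyte to blastocyst (a grey bar for sperm, which entered no test). Rbm8a, Ddx39b and Nxf1 rise from oocytes to a 4-cell plateau or peak, and Alyref and Alyref2 step up at the 2-cell stage. From oocyte to blastocyst the Thoc3 values of neighbouring stages overlap. Those of Nxt1 run from 35.7 TPM in a 1-cell library to 286 TPM in an oocyte library.

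Among the exon junction core genes, Magoh, which binds Rbm8a and holds the complex on RNA, was abundant in oocytes. It was measured at 3.97 and 10.2 TPM in sperm, 266 and 42.4 in oocytes, 249 and 120.0 in 1-cell embryos, 21.0 and 169 in 2-cell embryos, 403 and 369 in 4-cell embryos, 260.4 and 158 in 8-cell embryos, and 122 and 11.2 in blastocysts. The 4-cell values lay above those of all other stages, while the replicates of the oocyte, 2-cell and blastocyst stages spanned most of the gene's range. Magohb, its copy, was measured at 9.79 and 15.1 TPM in sperm, 67.1 and 36.2 in oocytes, 47.4 and 36.1 in 1-cell embryos, 2.72 and 15.4 in 2-cell embryos, 29.9 and 21.6 in 4-cell embryos, 38.4 and 25.8 in 8-cell embryos, and 28.9 and 10.7 in blastocysts. Both 2-cell values were below both values of the 1-cell and of the 4-cell stage. Rbm8a, the other subunit of the heterodimer, followed another course, with 22.7 and 3.02 TPM in sperm, 4.88 and 7.09 in oocytes, 28.7 and 7.34 in 1-cell embryos, 82.9 and 533 in 2-cell embryos, 781 and 995 in 4-cell embryos, 780.4 and 711 in 8-cell embryos, and 819 and 124 in blastocysts. No oocyte or 1-cell value reached any later value, and at a mean of 888 ± 151 TPM (SD, n = 2) in 4-cell embryos Rbm8a was the most abundant of the 10 genes, above 98.3% of the genes detected at that stage.

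Among the TREX genes, Ddx39b, the RNA helicase that loads the adaptors, was measured at 17.6 and 4.49 TPM in sperm, 1.16 and 1.50 in oocytes, 10.0 and 4.89 in 1-cell embryos, 53.8 and 18.2 in 2-cell embryos, 91.1 and 85.0 in 4-cell embryos, 72.8 and 83.4 in 8-cell embryos, and 102 and 47.6 in blastocysts. Each step up to the 4-cell stage left no overlap between the libraries, and the levels of the 3 last stages overlapped or lay close together. Thoc3, a THO subunit, was measured at 17.0 and 152 TPM in sperm, 138 and 491 in oocytes, 269 and 308 in 1-cell embryos, 443 and 115 in 2-cell embryos, 352 and 238 in 4-cell embryos, 255 and 422 in 8-cell embryos, and 93.1 and 316 in blastocysts. Its 6 stage means from oocyte to blastocyst, between 204 and 338 TPM, did not differ beyond the spread of their libraries.

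Alyref, the adaptor that carries the mRNA from TREX to the receptor, was measured at 6.86 and 21.2 TPM in sperm, 11.4 and 3.76 in oocytes, 2.00 and 5.02 in 1-cell embryos, 323 and 47.6 in 2-cell embryos, 98.3 and 57.2 in 4-cell embryos, 38.6 and 35.0 in 8-cell embryos, and 28.2 and 84.9 in blastocysts. The 2-cell replicates were far apart, but the lower of them was above all oocyte and 1-cell values. Alyref2, its copy without introns, was listed at 0 in oocyte replicate 1 and in 1-cell replicate 1, where the other libraries of these stages held 0.375 and 1.15 TPM. It was measured at 4.45 and 17.4 TPM in sperm, 20.7 and 27.9 in 2-cell embryos, 9.33 and 11.3 in 4-cell embryos, 4.15 and 6.04 in 8-cell embryos, and 3.01 and 15.7 in blastocysts. Its order from the 2-cell to the 8-cell stage was a descent without overlap. Sarnp, a TREX-associated protein, was measured at 41.2 and 37.2 TPM in sperm, 48.3 and 57.3 in oocytes, 61.4 and 31.9 in 1-cell embryos, 44.3 and 133 in 2-cell embryos, 197 and 172 in 4-cell embryos, 231 and 94.9 in 8-cell embryos, and 259.5 and 86.4 in blastocysts. The 4-cell values lay above all earlier ones, and the 8-cell and blastocyst ranges enclosed them.

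Of the receptor, Nxf1, the large subunit, was measured at 38.2 and 13.9 TPM in sperm, 0.682 and 1.44 in oocytes, 19.5 and 5.84 in 1-cell embryos, 63.9 and 38.1 in 2-cell embryos, 118 and 111 in 4-cell embryos, 30.2 and 30.8 in 8-cell embryos, and 28.8 and 15.4 in blastocysts. No 2 neighbouring stages overlapped from oocyte to blastocyst, and the 4-cell stage was the peak. Nxt1, the small subunit, was measured at 16.2 and 53.2 TPM in sperm, 71.7 and 286 in oocytes, 77.2 and 35.7 in 1-cell embryos, 99.1 and 142 in 2-cell embryos, 88.2 and 82.4 in 4-cell embryos, 69.1 and 94.4 in 8-cell embryos, and 44.7 and 48.2 in blastocysts. Its oocyte replicates differed most, and the oocyte, 1-cell and 8-cell ranges overlapped.

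The comparison of 1-cell with 2-cell embryos spans the activation of the embryonic genome. By limma with Benjamini-Hochberg adjustment over all 10000 genes tested, 6 of the 10 genes changed at an adjusted p under 0.05, with 32.3% of all genes called, 26.1% higher and 6.2% lower at the 2-cell stage. Alyref rose by 4.88 (SE 0.92, adjusted p = 0.00142), Alyref2 by 4.10 (SE 0.73, adjusted p = 0.000961) and Rbm8a by 3.75 (SE 1.02, adjusted p = 0.0125), all on the log2(TPM + 1) scale, which understates changes of genes near 0. Nxf1 rose by 2.09 (SE 0.72, adjusted p = 0.0384) and Ddx39b by 2.01 (SE 0.72, adjusted p = 0.0466). Magohb was the only gene of the group that was called lower. It fell by 2.44 (SE 0.80, adjusted p = 0.0318). Both 2-cell libraries lay above both 1-cell libraries in 6 members and below them in 1 (42.7% and 15.4% of all genes). The 4 further genes did not pass the test. Magoh changed by -1.51 (95% interval -4.04 to 1.02), Nxt1 by 1.16 (-0.48 to 2.80), Sarnp by 0.78 (-0.95 to 2.52) and Thoc3 by -0.35 (-2.29 to 1.59), intervals that hold changes in either direction. The median change was 1.59 over the 10 genes and 0.72 over all genes tested.

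At gene level the rises of Alyref and Alyref2 were called under all 21 alternative settings, and the others were not. The only merged transcript of each lost its call in the transcript-level limma fit on the libraries of this comparison alone (adjusted p = 0.114 and 0.113). A fit that weights each stage by its own spread, and a fit on the 4 libraries of this comparison alone, left 2 of the 6 calls, Alyref and Alyref2, while the share of all genes called dropped from 32.3% to 15.3% and 10.8%. Rbm8a lost its call without 1-cell replicate 2 (2.83, adjusted p = 0.132) or without 2-cell replicate 2 (2.41, adjusted p = 0.0890). Magohb fell by 1.37 without 2-cell replicate 1 (adjusted p = 0.202), and its adjusted p also passed 0.05 without either 1-cell library (0.133 and 0.0933) or any 1 of the 4-cell and 8-cell libraries (0.0509 to 0.0528). Nxf1 dropped to 1.29 without 1-cell replicate 2 (adjusted p = 0.279) and to 1.72 without 2-cell replicate 1 (adjusted p = 0.111), and Ddx39b to 1.56 and 1.25 without the same libraries (adjusted p = 0.232 and 0.216). Both also missed the threshold without any 1 of the 4-cell and 8-cell libraries (adjusted p between 0.0655 and 0.0833), and Ddx39b also without either oocyte library (0.0516 and 0.0519) or 1-cell replicate 1 (0.0631). With quantile normalization, 1591 of all genes were called higher and 1757 lower instead of 2607 and 620, and 3 of the members rose, Alyref, Alyref2 and Rbm8a, while Magohb fell by 3.47 (adjusted p = 0.00278).

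The comparison of oocytes and 1-cell embryos with 4-cell and 8-cell embryos has 4 libraries on each side and uses no 2-cell mean. The spread behind its test was still pooled over all 12 libraries, with the wide 2-cell stage among them. Here 6 of the 10 genes rose and none fell, with 68.3% of all genes called, 46.2% higher and 22.1% lower. Rbm8a rose by 6.28 on the log2(TPM + 1) scale (SE 0.72, adjusted p = 4.4e-06), Ddx39b by 4.28 (SE 0.51, adjusted p = 6.34e-06), Nxf1 by 3.62 (SE 0.51, adjusted p = 2.55e-05), Alyref by 3.23 (SE 0.65, adjusted p = 0.000539), Alyref2 by 2.65 (SE 0.51, adjusted p = 0.000403) and Sarnp by 1.75 (SE 0.57, adjusted p = 0.0142). In all 6 the 4 later libraries lay above the 4 earlier ones, as in 43.4% of all genes tested, and in 0 members below them (19.2% of all genes). Of those that did not pass, Magoh differed by 1.04 (95% interval -0.75 to 2.82), Thoc3 by 0.17 (-1.20 to 1.54), Nxt1 by -0.07 (-1.22 to 1.09) and Magohb by -0.66 (-1.87 to 0.56). The median change was 2.20 over the 10 genes and 0.95 over all genes tested. With quantile normalization, which moved that median of all genes to 0.06, 5 of the 6 rises kept an adjusted p under 0.05, Sarnp did not (1.10, adjusted p = 0.0913), and Magohb was called lower (-1.43, adjusted p = 0.0175). Sarnp also lost its call without 1-cell replicate 2 (1.52, adjusted p = 0.0542), without 8-cell replicate 1 (1.43, adjusted p = 0.0789) and when each transcript was added to every gene it overlaps (1.01, adjusted p = 0.134).

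**Figure D2:**
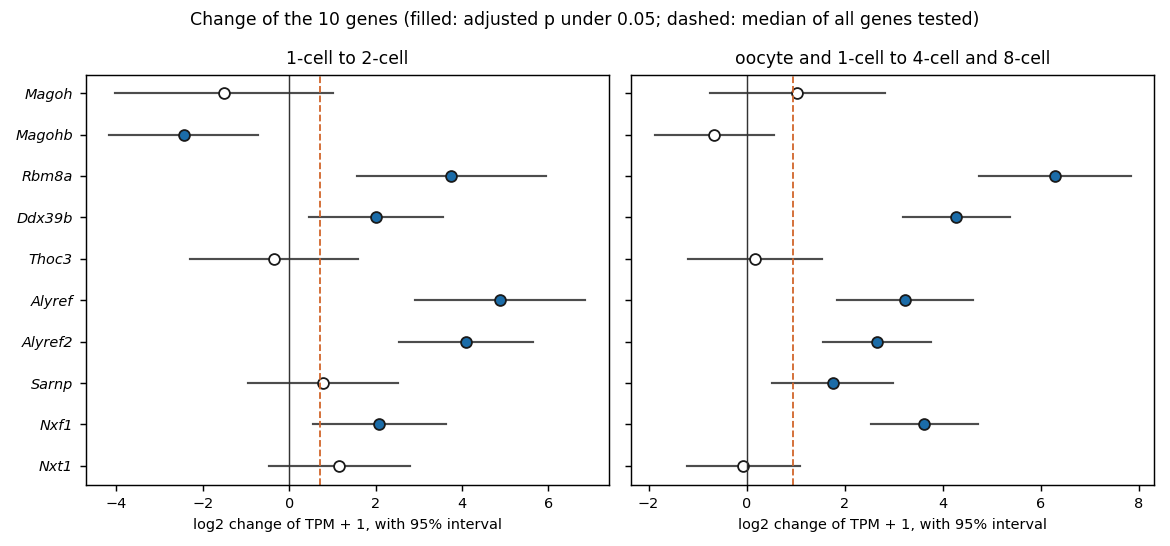
Change of each gene on the log2(TPM + 1) scale (horizontal axis) between 1-cell and 2-cell embryos and between oocytes with 1-cell embryos and 4-cell with 8-cell embryos, with 95% intervals from limma. Filled points passed an adjusted p of 0.05, and the dashed lines mark the median change of all genes tested, 0.72 and 0.95.

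Over the other 4 steps 0 of the 10 genes passed by limma at an adjusted p under 0.05, against 0.38% of all genes between oocytes and 1-cell embryos, 3.4% between the 2-cell and 4-cell stages, 1.67% between the 4-cell and 8-cell stages, and 3% between 8-cell embryos and blastocysts. Among their transcripts 0 were called in these steps (2%, 2.63%, 3.13% and 2.11% of all transcripts), and among isoform shares 0 as well (0.135%, 0.211%, 0.307% and 0.211% of all shares). Without a test, 3 members had both 1-cell libraries above both oocyte libraries (28.6% of all genes, against 9.02% lower and 0 members). Likewise 6 were higher and 2 lower in the 4-cell than in the 2-cell stage (30.7% and 22.1% of all genes), 0 higher and 6 lower in the 8-cell than in the 4-cell stage (22.9% and 47.3%), and 0 higher and 3 lower in blastocysts than in 8-cell embryos (19.7% and 28.1%). At an unadjusted p under 0.05, 2, 2, 1 and 0 of the 10 members were counted, against 9.2%, 24.5%, 15.7% and 14.4% of all genes, so these counts are not a result about the members. The genes counted are given with their values. From oocyte to 1-cell embryo these were Nxf1, with a difference of 2.55 (SE 0.72, adjusted p = 0.173), and Ddx39b, with 1.79 (SE 0.72, adjusted p = 0.431). From the 2-cell to the 4-cell stage they were Magoh, with 2.66 (SE 1.18, adjusted p = 0.184), and Magohb, with 1.76 (SE 0.80, adjusted p = 0.196). From the 4-cell to the 8-cell stage it was Nxf1, with -1.88 (SE 0.72, adjusted p = 0.215), whose libraries read 118 and 111 TPM before and 30.2 and 30.8 TPM after. A fit on these 4 libraries alone called 1 of the 10 members there and 31.7% of all genes, and a fit weighted by stage called 2 and 39.2%. In the blastocyst the replicates disagreed by gene, with Magoh at 122 and 11.2 TPM and Rbm8a at 819 and 124 TPM in replicates 1 and 2, but Alyref at 28.2 and 84.9 TPM and Thoc3 at 93.1 and 316 TPM.

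The partners of a complex and the copies of a gene can be set against each other within a library. Magohb made up 71.1% and 59.6% of the summed TPM of Magoh and Magohb in sperm, 20.1% and 46.1% in oocytes, 16.0% and 23.1% in 1-cell embryos, 11.5% and 8.34% in 2-cell embryos, 6.92% and 5.53% in 4-cell embryos, 12.8% and 14.03% in 8-cell embryos, and 19.2% and 48.8% in blastocysts. Magoh was thus the more abundant copy in all 12 oocyte and embryo libraries and Magohb in both sperm libraries. Alyref2 made up 39.4% and 45.0% of its pair in sperm, 0% and 9.07% in oocytes, 0% and 18.6% in 1-cell embryos, 6.04% and 36.9% in 2-cell embryos, and 8.67% to 16.5% in the 6 later libraries. Alyref was the more abundant copy in all 14 libraries.

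**Figure D3:**
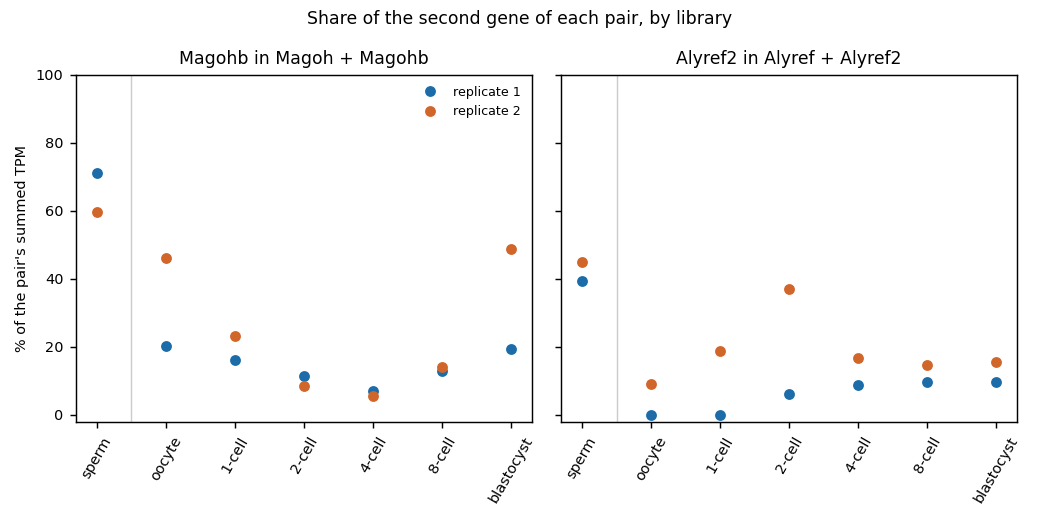
Share of Magohb in the summed TPM of Magoh and Magohb (left) and of Alyref2 in that of Alyref and Alyref2 (right), in percent, by stage, with 1 point for each library. The Magohb share is lowest at the 4-cell stage (6.92% and 5.53%), and both shares are highest or near their highest in sperm.

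Magoh and Rbm8a bind each other 1 to 1, but their mRNA levels did not move together. The ratio of Magoh to Rbm8a TPM was 54.5 and 5.98 in oocytes and 8.68 and 16.4 in 1-cell embryos, and 0.253 and 0.317 in 2-cell embryos, 0.516 and 0.371 in 4-cell embryos, 0.334 and 0.222 in 8-cell embryos, and 0.149 and 0.0903 in blastocysts. Every oocyte and 1-cell library thus held more Magoh than Rbm8a, and every later library held more Rbm8a. The receptor pair differed in a like way, with a ratio of Nxf1 to Nxt1 of 0.00951 and 0.00502 in oocytes, 0.253 and 0.164 in 1-cell embryos, 0.645 and 0.267 in 2-cell embryos, 1.34 and 1.35 in 4-cell embryos, 0.436 and 0.327 in 8-cell embryos, and 0.643 and 0.319 in blastocysts. The 4-cell libraries were the only ones from oocyte to blastocyst in which Nxf1 exceeded Nxt1. These ratios are descriptions of mRNA and were not tested as such.

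Of the 10 genes, 4 had more than 1 merged transcript: Nxt1 with 2, Thoc3 with 2, Rbm8a with 3 and Sarnp with 3. At the transcript level 15 of the 16 transcripts passed the filter on low values. From 1-cell to 2-cell 7 of them were called, 6 higher and 1 lower (28% of all 20250 transcripts called, 22.9% higher and 5.11% lower). In the comparison of oocytes and 1-cell embryos with 4-cell and 8-cell embryos 10 were called, all higher (67.7% of all called, 46.1% higher and 21.6% lower). With quantile normalization 8 were called higher there and 2 lower, with 6646 of all transcripts higher and 6266 lower. The share of a transcript in its gene, tested as log2 of its TPM + 1 over the TPM of the gene's other transcripts + 1, was called for 4 of 9 transcripts from 1-cell to 2-cell (2 up and 2 down, with 15.7% of all 10407 called, 7.47% up and 8.2% down) and for 7 of 9 in the longer comparison (4 up and 3 down, with 43.1% of all called, 20.7% up and 22.4% down). In genes with 2 transcripts a call for the share of one is also a call for the other.

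Sarnp gave the largest change of share among the 9 transcripts from 1-cell to 2-cell. Its 11-exon transcript has the introns of an annotated transcript (chr10:128821791-128877620, plus strand), while a transcript of 2 exons and 408 bases (chr10:128821792-128823350) starts 1 base downstream and ends on an exon inside the first intron, at chr10:128823123-128823350, that is in no annotated transcript of the gene. The short form was measured at 25.4 and 33.3 TPM in sperm, 1.83 and 0.792 in oocytes, 1.29 and 1.33 in 1-cell embryos, 22.2 and 76.1 in 2-cell embryos, 21.9 and 22.2 in 4-cell embryos, 12.8 and 6.95 in 8-cell embryos, and 9.59 and 4.50 in blastocysts. On the log2(TPM + 1) scale the short form rose by 4.19 from 1-cell to 2-cell (SE 0.74, adjusted p = 0.00191), while the 11-exon form changed by -0.18 (SE 0.85, adjusted p = 0.903). In percent of the gene's TPM the short form was 61.7% and 89.6% in sperm, 1.38% to 4.15% in the 4 oocyte and 1-cell libraries, 50.1% and 57.1% in 2-cell embryos, and 3.70% to 12.9% in the 6 later libraries. Its log2 share rose by 4.46 from 1-cell to 2-cell (SE 0.57, adjusted p = 0.00215), a call lost in 1 alternative, the fit on the libraries of that comparison alone (adjusted p = 0.0805).

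Thoc3 had a second form in which exon 3 was 276 instead of 205 bases long, by a stretch of 71 bases at chr13:54466385-54466455. The gene lies on the minus strand, and the stretch is shown in the direction of transcription as it stands in an annotated noncoding transcript. It is shown because it sets the forms apart, and its length is not a multiple of 3.
Thoc3 stretch: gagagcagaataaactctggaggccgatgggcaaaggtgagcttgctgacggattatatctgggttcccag
The longer form was measured at 3.51 and 32.8 TPM in sperm, 1.08 and 4.98 in oocytes, 6.12 and 5.00 in 1-cell embryos, 25.9 and 39.0 in 2-cell embryos, 44.2 and 39.4 in 4-cell embryos, 21.1 and 28.9 in 8-cell embryos, and 8.28 and 20.9 in blastocysts. All 6 libraries from the 2-cell to the 8-cell stage lay above the oocyte and 1-cell libraries. Its level rose by 2.79 on the log2(TPM + 1) scale from oocytes and 1-cell embryos to 4-cell and 8-cell embryos (SE 0.52, adjusted p = 0.000553), while the form with the annotated introns changed by 0.02 (SE 0.71, adjusted p = 0.982). The log2 share rose by 2.77 (SE 0.60, adjusted p = 0.00479), from 0.778% to 2.27% of the gene's TPM in the earlier libraries to 6.84% to 16.5% in the later ones. From 1-cell to 2-cell its share was called too (2.99, SE 0.85, adjusted p = 0.0410), but the 2-cell replicates gave 5.84% and 34.0%, and the call was lost in 15 alternatives, 11 of them fits that left out 1 library.

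The 2 forms of Nxt1 have the introns of 2 annotated transcripts, which differ by an exon of 135 bases (chr2:148674464-148674598, plus strand). The junctions behind the shared first exon are shown with 15 bases on each side, the first exon in lower case and the exon joined to it in capitals.
Nxt1 without the exon: accgagatcgagcagTCCCTGGATCCCTAA
Nxt1 with the exon: accgagatcgagcagGCACCTGCTCTCCTT
The form with the extra exon made up 48.3% and 66.3% of Nxt1 in sperm, 41.4% and 38.5% in oocytes, 48.4% and 56.5% in 1-cell embryos, 47.3% and 47.7% in 2-cell embryos, 25.3% and 28.9% in 4-cell embryos, 17.9% and 21.996% in 8-cell embryos, and 9.88% and 14.5% in blastocysts. From the 2-cell stage on, each stage lay below the one before it without overlap. The log2 share fell by 1.44 from oocytes and 1-cell embryos to 4-cell and 8-cell embryos (SE 0.32, adjusted p = 0.00514), although the level of the gene did not pass the test in that comparison.

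Rbm8a had 3 forms that differ at the start of annotated exon 3, as 2 annotated transcripts do by 3 bases. The longest, with 8 exons, also has a further first and a further last exon. The junction of exons 2 and 3 is shown for both annotated forms, with the 3 extra bases in capitals.
Rbm8a short exon: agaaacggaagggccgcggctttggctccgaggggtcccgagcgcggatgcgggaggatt
Rbm8a long exon: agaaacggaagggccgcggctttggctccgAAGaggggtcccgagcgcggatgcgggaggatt
The first form, with the annotated introns and the short exon 3, held 37.2% to 94.5% of the gene's TPM and at least 77.1% in all oocyte and embryo libraries. The 8-exon form starts 784 bases upstream of the annotated start and uses the long version of that exon, which is its exon 4. It made up 17.6% and 22.9% in oocytes, 11.6% and 12.8% in 1-cell embryos, and 10.8% and 11.2% in 2-cell embryos. Its share was 7.08% and 7.72% in 4-cell embryos, 6.51% and 5.54% in 8-cell embryos, and 6.06% and 7.60% in blastocysts. By limma its log2 share fell by 1.96 from oocytes and 1-cell embryos to 4-cell and 8-cell embryos (SE 0.33, adjusted p = 0.00130). Its own level rose by 4.44 (SE 0.68, adjusted p = 0.000136) and that of the first form by 6.41 (SE 0.76, adjusted p = 2.34e-05). The 8-exon form was at 0.858 and 1.63 TPM in oocytes and 3.32 and 0.940 TPM in 1-cell embryos. These values lie near the 1 TPM added before the log, so the size of the fall depends on that addition. Over the alternatives it was between 1.47 and 2.13. The third form, whose exon 3 begins between those acceptors, was at 1.04 TPM or less in every library of the merged quantification, but the 8-cell and blastocyst long-read transcripts with its junction had been given 470.5 and 455 TPM and 679 and 114 TPM in the tables made for those stages alone. The forms differ there by 1 to 3 bases, and the cause of this difference between tables was not tested. The tables also differ for transcripts with an upstream start. A 7-exon long-read transcript that starts at chr3:96629199 had 73.5 and 361 TPM in the 2-cell table, and one that starts at chr3:96629149 had 267 and 397 TPM in the 4-cell table, above every other Rbm8a transcript of these tables. In the merged quantification the 8-exon form had 8.92 and 59.6 TPM in 2-cell embryos and 55.3 and 76.7 TPM in 4-cell embryos. Its fall in share thus rests on the merged quantification, and the cause of the difference was not tested.

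**Figure D4:**
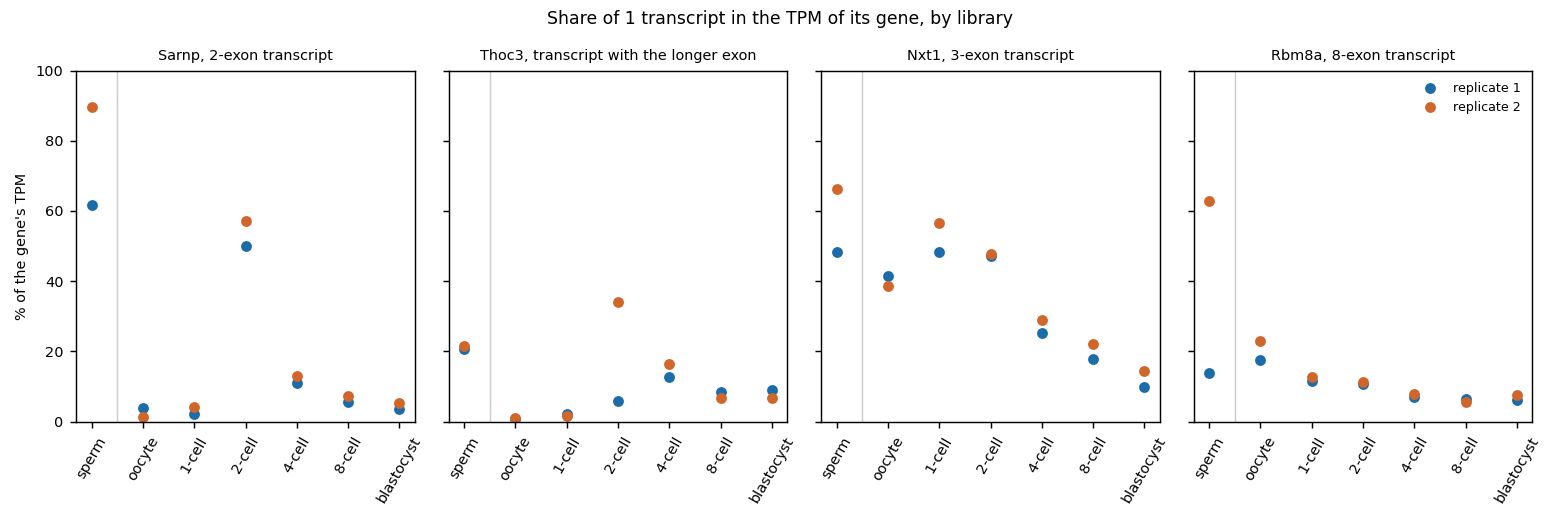
Share of 1 transcript in the summed TPM of its gene, in percent, by stage, with 1 point for each short-read library, for the 2-exon Sarnp form, the Thoc3 form with the longer exon, the 3-exon Nxt1 form and the 8-exon Rbm8a form. The Sarnp form stands at 50.1% and 57.1% in 2-cell embryos and at no more than 12.9% in the other oocyte and embryo libraries, and the Nxt1 form declines from the 2-cell stage on.

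The long-read pools, 1 for each stage with 7034 to 8831 transcripts, found Magoh, Nxt1 and Thoc3 at all 7 stages, Rbm8a at 6, Ddx39b, Nxf1 and Sarnp at 5, Magohb at 4, and Alyref and Alyref2 at 3. Ddx39b and Nxf1 were missing from the oocyte and 1-cell pools, where their short-read levels were lowest. Alyref was found in sperm, 8-cell embryos and blastocysts but not in the 2-cell pool, where its short-read level was highest, and Alyref2 was found in sperm, 2-cell and 4-cell embryos. The short Sarnp form was read in full at the 2-cell stage alone, and the longer Thoc3 form at the 2-cell and 8-cell stages. The full intron chain of the 8-exon Rbm8a form was in no pool and arose when the stages were merged. With 1 pool per stage the presence or absence of a transcript has no replicate check.

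Around these 10 genes, 52 further genes of the pathway were listed and 47 had a merged transcript and passed the filter on low values. From 1-cell to 2-cell 11 of the 47 rose and 2 fell, 27.7% against 32.3% of all genes, with a median change of 0.72, equal to that of all genes. In the longer comparison 22 rose and 5 fell, 57.4% against 68.3% of all genes, with a median of 1.03 against 0.95. Both shares were below that of all genes. The groups of the list are given by their counts, and differences between groups were not tested. Of the 2 other junction core genes, both were called higher in both comparisons. Of the 4 cap-binding genes 3 rose from 1-cell to 2-cell and 4 in the longer comparison, and of the 9 other TREX genes 4 and 8 rose and none fell. Of 6 TREX-2 genes, the complex that tethers export to the nuclear pore, 1 fell from 1-cell to 2-cell, and 3 fell and 1 rose in the longer comparison. Of 9 genes of the pore and of mRNP remodelling 1 fell in each comparison and none rose. Of 7 partners of the junction complex 1 and 3 rose, of 8 genes of nonsense-mediated decay 1 rose from 1-cell to 2-cell, and 3 rose and 1 fell in the longer comparison, and of 2 further export receptor genes 0 and 1 rose.

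By size, the rises were led by Ncbp1, the large subunit of the nuclear cap-binding complex, with 6.50 on the log2(TPM + 1) scale from 1-cell to 2-cell (SE 0.89, adjusted p = 0.000224) and 5.43 in the longer comparison (SE 0.63), and by Smg5, a factor of nonsense-mediated decay, with 4.05 (SE 0.63, adjusted p = 0.000421) and 5.25 (SE 0.44). The falls were led by Ddx19a, a helicase of the remodelling step at the pore, with -2.31 (SE 0.73, adjusted p = 0.0269) and -3.36 (SE 0.52), and by the TREX-2 subunit Pcid2, with -2.23 (SE 0.70, adjusted p = 0.0256) and -3.003 (SE 0.50). From 8-cell to blastocyst 1 gene of the list was called, the receptor paralogue Nxf7, which rose by 2.53 (SE 0.51, adjusted p = 0.0145). Over the other 3 steps 0 of the 47 passed. The core helicase Eif4a3 and Casc3, partners of Magoh and Rbm8a, rose by 2.50 (SE 0.69, adjusted p = 0.0137) and 3.50 (SE 0.67, adjusted p = 0.00158) from 1-cell to 2-cell, and were named after their values were seen.

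**Figure D5:**
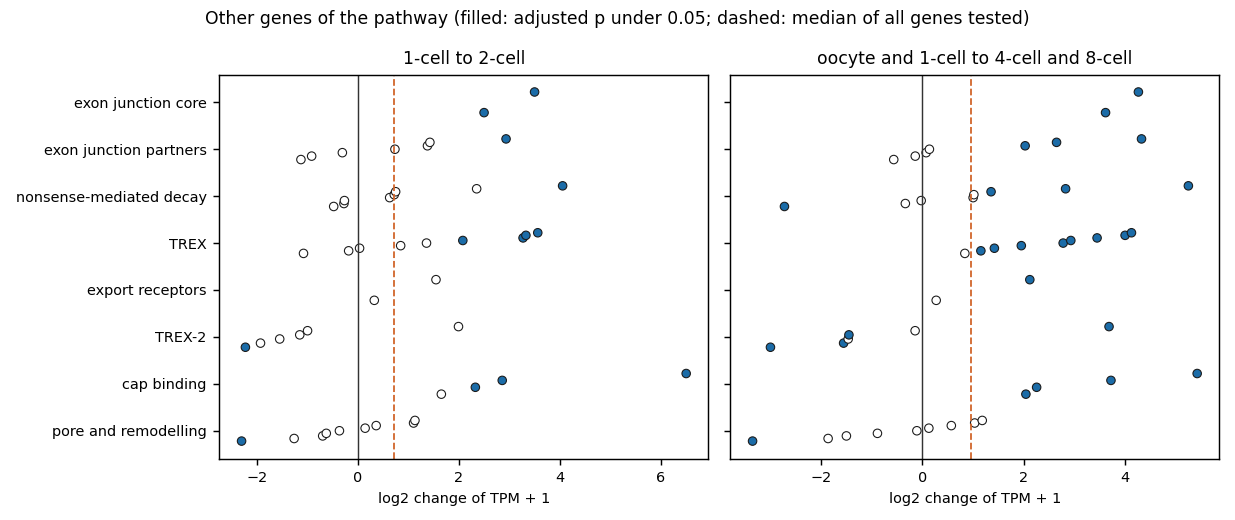
Change of each of the 47 further pathway genes on the log2(TPM + 1) scale (horizontal axis) in the comparisons of 1-cell with 2-cell embryos and of oocytes and 1-cell embryos with 4-cell and 8-cell embryos, in rows by role. Filled points passed an adjusted p of 0.05, and the dashed lines mark the median of all genes tested (0.72 and 0.95). The TREX and cap-binding rows lie mostly to the right and the TREX-2 row holds 3 of the 5 falls in the longer comparison.

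Across the 12 oocyte and embryo libraries, which share their stages in pairs, the members' courses were described by Pearson's r of log2(TPM + 1). Within the group the highest r was 0.92 between Rbm8a and Ddx39b, followed by 0.88 for Alyref with Alyref2, Nxf1 with Ddx39b and Sarnp with Rbm8a. Magoh and Magohb stood at 0.66, and Magohb was the member least like Alyref (-0.77) and Alyref2 (-0.79). Thoc3 and Nxt1 had no member above 0.31. Over all 10000 genes the nearest to Rbm8a was Atp5g1 (r = 1.00 after rounding), to Ddx39b Rpl10a (0.99), to Nxf1 Gm10184 (0.98), to Magoh Rnmt (0.98), to Alyref2 Acss2 (0.98), to Sarnp Smc2 (0.97), to Alyref Rrs1 (0.97), to Magohb Snrpb2 (0.95), to Thoc3 Eif5 (0.90) and to Nxt1 Ddr1 (0.85). Such values over 12 libraries with 10000 candidates describe likeness of course and no more.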

How the data were processed

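The authors aligned and assembled the long reads of each stage, merged the stages into 1 annotation of 22612 transcripts on the mm10 assembly, and deposited, for each of 14 short-read libraries of Smart-seq2 cDNA, the TPM of every merged transcript as estimated by salmon, with tables for single stages. The study lists total reads per library, but the reads behind a TPM value were not used here, so no count test was run and no counting interval is given. The 2 8-cell libraries carry opposite replicate numbers in titles and file names, and titles were followed. Transcripts were assigned to the GENCODE vM21 gene with which they share most exon bases on the same strand, and gene TPM is the sum. Features that reached 1 TPM in 2 or more of the 12 oocyte and embryo libraries were tested with limma 3.58.1 (R 4.3.3) on log2(TPM + 1), with stage as the only term, trend in eBayes and Benjamini-Hochberg adjustment within each of 6 contrasts, called at an adjusted p under 0.05. Sperm entered no test. The scripts were tested on simulated data with 200 changed genes. Between the 1-cell and 2-cell stages, whose spread differs, this fit made more false calls than its threshold allows. At a log2 change of 4 it recovered 154 genes there with 97 false calls, and at a change of 2 it recovered 2. In the comparison of oocytes and 1-cell embryos with 4-cell and 8-cell embryos it recovered 200 and 0, with 0 false calls. Results weighted by stage are given beside this fit, but the weighted fit was not run on simulated data. The genes and lists were chosen with earlier results of these data known. Named are all 10 members, the 2 largest called rises and falls of the pathway list in each contrast, and for each member the gene and the member with the highest r. The libraries were treated as unpaired. Deviations from the stage means, compared between same-numbered libraries in 15 pairs of stages, correlated at r = -0.55 to 0.48, and 5 were above 0.1. With 2 libraries a stage the sign of r depends on the numbering, so these values cannot tell whether libraries shared a batch. Alternatives were another pseudocount (0.1), no filter or a filter at 5 TPM, quantile normalization, fits on the libraries of a contrast alone, with a replicate block or weighted by stage, 2 other rules of gene assignment, and each of 12 libraries left out. Promoters came from RefSeq tables and transcripts from GENCODE, read with Biopython 1.88. No genome or protein sequence was used here.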

Additional observations from a re-analysis of the deposited data

How the results depend on the processing

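In the comparison of oocytes and 1-cell embryos with 4-cell and 8-cell embryos, the counts of called members stayed within 1.5 times under every alternative run at gene, transcript and share level. Their directions did not all stay. With quantile normalization 5 genes were higher and 1 lower instead of 6 and 0 (all genes: 3321 and 3215). Likewise 8 transcripts were higher and 2 lower instead of 10 and 0 (all transcripts: 6646 and 6266). From 1-cell to 2-cell the counts did not stay within 1.5 times. At gene level 6 members fell to 2 in the fit on the libraries of the contrast alone and to 2 with the spread weighted by stage, and to between 2 and 6 with 1 library left out. The share of all genes called went from 32.3% to 10.8% in the contrast alone and 15.3% weighted by stage. At transcript level 7 became 0 in the contrast alone, 3 weighted by stage, and 3 to 8 with 1 library left out (all transcripts: 28%, then 0% and 11.2%). For isoform shares 4 became 1 with a pseudocount of 0.1, 0 in the contrast alone, 1 weighted by stage, 2 with the replicate block, and 1 to 4 with 1 library left out (all shares: 15.7%, then 12.1%, 0%, 6.44% and 13.3%). From 2-cell to 4-cell the 0 calls became 1 at transcript level with quantile normalization, and up to 3 genes and 2 transcripts when 1 library was left out (2-cell replicate 2), where all calls rose from 3.4% to 17.1% of genes and from 2.63% to 12.6% of transcripts (9.03% with quantile normalization). From 4-cell to 8-cell 0 became 1 gene and 1 transcript in the contrast alone and 2 genes and 2 transcripts weighted by stage, while 31.7% and 39.2% of all genes and 18.3% and 31% of all transcripts were called. The replicate block also ended the 1-cell to 2-cell calls of Ddx39b (adjusted p = 0.0563) and Nxf1 (adjusted p = 0.0503), leaving 4 of 6. The spread differed between stages (median SD 0.19 to 1.04), while the test pools it, and the cause of these changes was not tested. The reads behind each value were not used here, and 2 libraries per stage limit the precision.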
